A study of Mus musculus with 19 samples.

Results

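Complement genes were described in single cells from the mouse hindlimb tenotomy site, where a burn combined with Achilles tenotomy leads to heterotopic ossification, the growth of bone in soft tissue. The 9 genes were taken by symbol and all 9 were found among the 27998 genes of the files: the C1q chains C1qa, C1qb and C1qc, the components C3, C4b and Cfb, the inhibitor Serping1, and the anaphylatoxin receptors C3ar1 and C5ar1. The 19 libraries fall into 5 groups: day 0 (4 libraries), day 3 (3), day 7 (4) and day 21 (4) after injury, and mice given p7N3 (4), a CD47-activating peptide injected daily into the peritoneum at 10 mg/kg from before until after injury. Tissue was digested with collagenase and dispase and captured in droplets with 3' tags, so that each value is a count of unique molecular identifiers (UMIs). The labels name C57 mice and LysmCre/Tgfb1fx/fx mice without tying either line to a library, so all groups are given here without a genotype; the second line removes Tgfb1 from cells with Lyz2 promoter activity, which are mostly myeloid. The labels list the injury for the day 0 libraries too, whereas the methods describe day 0 as uninjured, and they name neither a vehicle for the day 7 libraries nor the animals behind a library, so that p-values here measure the spread between libraries, which may be technical. Replicate 4 of day 0, day 7, day 21 and p7N3 was deposited with a separate set of labels. The harvest day of p7N3 replicates 1 to 3 was day 7, and for p7N3 replicate 4 no harvest day is given.

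Complement is a cascade of plasma and tissue proteins that coats targets for removal and calls in phagocytes. C1q, built from A, B and C chains, binds targets such as immune complexes and dying cells and starts the classical pathway, in which C4 and C2 form an enzyme that cleaves C3; factor B (Cfb) forms the corresponding enzyme of the alternative pathway. Serping1 encodes C1 inhibitor, which blocks C1r and C1s, and C3ar1 and C5ar1 receive the small fragments C3a and C5a. Most plasma complement comes from the liver, but C1q is known to be made by macrophages and many of the other components by fibroblasts at the site of injury.

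All 9 genes lie on the minus strand of GRCm38. The C1q genes are neighbours on chromosome 4, C1qb at chr4:136880129-136886187, C1qc at chr4:136889804-136893065 and C1qa at chr4:136895917-136898803. Cfb (chr17:34856374-34862518), C4b (chr17:34728380-34743882) and C3 (chr17:57203970-57228136) are on chromosome 17, Serping1 is at chr2:84765387-84775444, C3ar1 at chr6:122847138-122856161 and C5ar1 at chr7:16246743-16259540. C4b has a near-identical neighbour, C4a (chr17:34809092-34823464), which is not among the genes of the files used here, so C4b counts are uncertain in that reads of the pair may have been shared or discarded.

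RefSeq (GRCm38.p6) held a promoter window, from 250 bases before to 50 bases after the start, for 5 of the 9 genes: C1qb, C1qc, C3, C3ar1 and C5ar1. The windows of the C1q chains C1qb (chr4:136886151-136886450) and C1qc (chr4:136892865-136893164) are shown because these neighbours moved apart in macrophages after injury, and that of C3 (chr17:57228087-57228386) because C3 fell in stromal cells and not in macrophages. Each is printed in the sense of its gene, and capitals mark a match on either strand to one of 4 motifs, none of which overlapped another: the PU.1 core GAGGAA, the interferon-stimulated response element GAAANNGAA, the NF-kB motif GGNNTTTCC and the C/EBP motif TTGCNNAA.
C1qb: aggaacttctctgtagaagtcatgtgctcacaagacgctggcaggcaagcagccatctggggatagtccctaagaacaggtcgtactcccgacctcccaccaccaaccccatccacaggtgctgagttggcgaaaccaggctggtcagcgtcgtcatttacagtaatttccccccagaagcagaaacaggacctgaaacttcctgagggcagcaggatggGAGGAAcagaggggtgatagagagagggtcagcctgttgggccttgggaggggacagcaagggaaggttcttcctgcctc
C1qc: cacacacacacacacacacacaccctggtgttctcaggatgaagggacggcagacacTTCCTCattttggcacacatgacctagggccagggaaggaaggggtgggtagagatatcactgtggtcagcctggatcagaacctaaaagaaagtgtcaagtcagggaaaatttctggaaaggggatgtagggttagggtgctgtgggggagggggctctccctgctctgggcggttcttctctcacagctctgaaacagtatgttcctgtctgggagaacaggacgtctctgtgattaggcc
C3: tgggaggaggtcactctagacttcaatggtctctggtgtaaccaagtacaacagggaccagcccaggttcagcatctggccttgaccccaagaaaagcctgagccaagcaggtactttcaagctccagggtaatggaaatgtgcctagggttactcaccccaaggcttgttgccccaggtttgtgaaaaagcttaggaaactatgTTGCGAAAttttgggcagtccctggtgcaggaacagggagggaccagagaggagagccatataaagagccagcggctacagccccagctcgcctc
The PU.1 core stood at -30 relative to the start on the plus strand of C1qb and at -193 on the other strand of C1qc, and 28.3% of all 32851 promoter windows of the same length held it. The C/EBP letters began at -45 in C3 (10.8% of all windows). C3ar1 held an NF-kB match at -14 (5.82% of windows) and C5ar1 an interferon-stimulated response element at -66 (8.56%). These are matches of letters and not sites of binding.

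In all, 39541 cells were kept, with 3019467 to 5383855 UMIs per library at day 0 against 11064153 to 39870492 in the injured groups, and at most 22 cell barcodes were shared by a pair of libraries. Cells were clustered without the complement genes and a name such as macrophage-like was given to a cluster by its marker genes. Monocyte/macrophage-like cells numbered 389 at day 0, 3692 at day 3, 3812 at day 7, 598 at day 21 and 3666 with p7N3, and stromal-like cells 1182, 816, 4032, 1734 and 3399; they are called macrophages and stromal cells here. Levels are counts per 1000000 UMIs (CPM) of a class in a library, and comparisons used edgeR's quasi-likelihood test on the summed UMIs with p-values adjusted by the Benjamini-Hochberg method over all genes tested. In such sums a fall in a class cannot be told apart between fewer producing cells and less RNA per cell. A fall can also follow from more RNA of other genes per cell, since CPM is a share of all UMIs. Levels of the members are compared within a gene only, because 3' tag counts are not set to a common scale between genes. The split of macrophage clusters by state is an exception, as it sets the mean level of a gene list against that of another. So are the percentages of the C1q chains, which set each chain against the sum of the chains.

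The complement genes divided by cell class. The 3 C1q chains and both receptors were highest in macrophages at day 0, whereas C3, Cfb and Serping1 were highest in stromal cells, and C4b was carried by both. C1qa stood at 4227 ± 419 CPM (SD, n = 4) in day 0 macrophages, and the next named class, tenocyte-like cells, had 57.1 ± 47.1 CPM (n = 3). Neighbours below the macrophages (tenocyte-like, endothelial-like, muscle-like, pericyte-like and stromal cells, from 57.1 down to 16.9 CPM) did not differ beyond their spread. C5ar1 was at 430 ± 58.7 CPM and C3ar1 at 207 ± 18.9 CPM in day 0 macrophages, with at most 6.87 CPM of C3ar1 on average in any other class of at least 3 libraries. Serping1 reached 2066 ± 158 CPM in day 0 stromal cells, followed by tenocyte-like cells (889 ± 311 CPM), muscle-like cells (411 ± 91.6 CPM) and pericyte/smooth muscle-like cells (399 ± 73.9 CPM), of which the last 2 overlapped. C3 was at 1020 ± 79.6 CPM in day 0 stromal cells against 26.6 ± 16.3 CPM in macrophages and 21.8 ± 10.2 CPM in endothelial-like cells, whose ranges overlapped. These class levels are a description with no test.

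**Figure D1:**
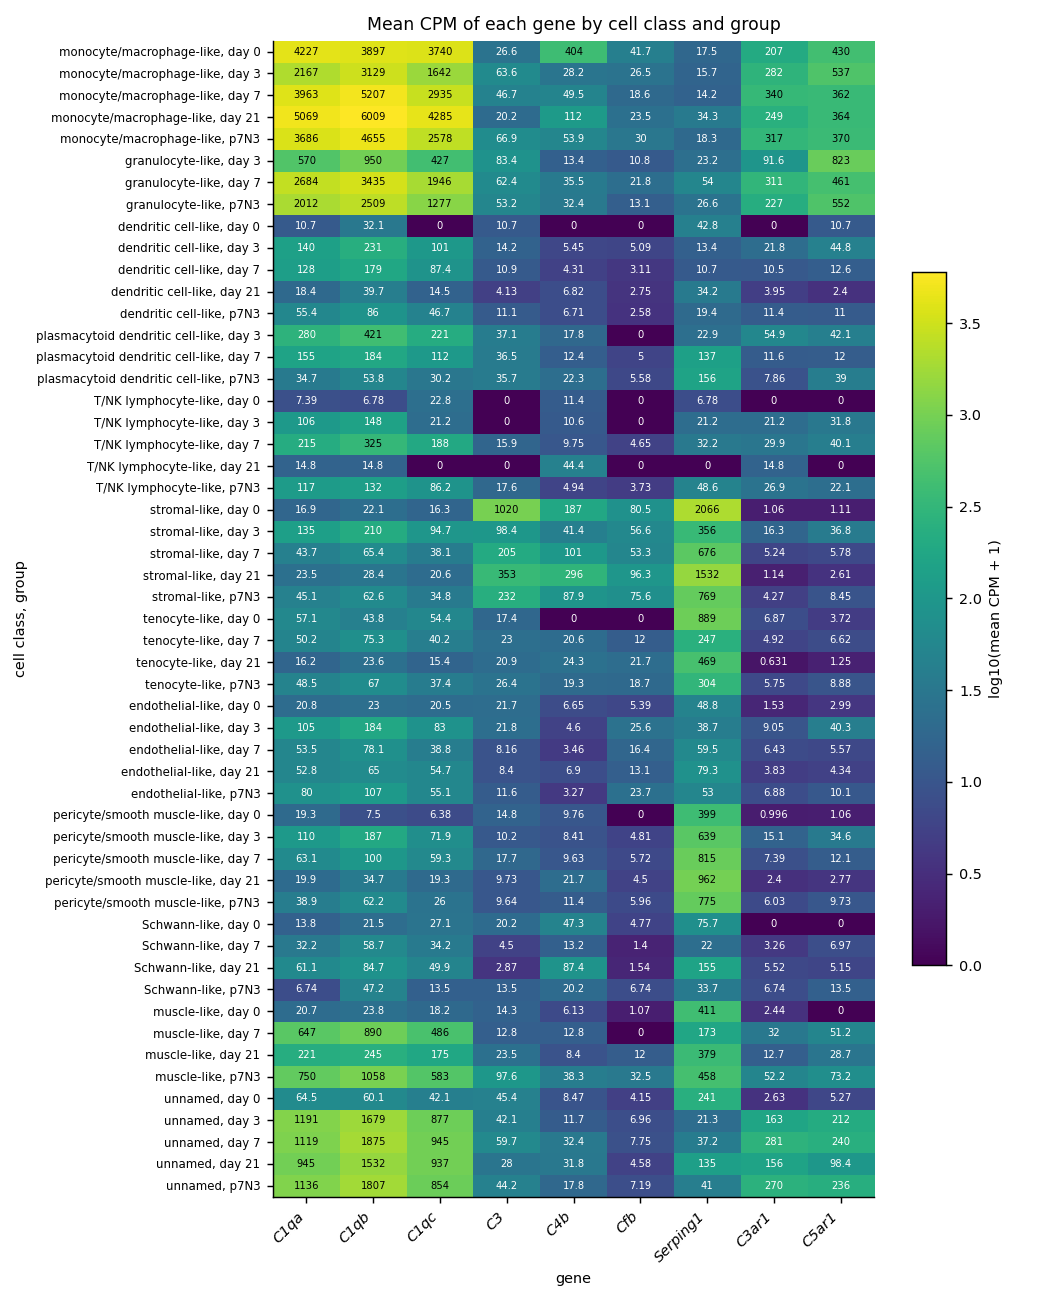
Mean CPM over libraries of each complement gene (columns) by cell class and group (rows), printed in each square and coloured from dark to light by log10(mean CPM + 1). The C1q chains and C3ar1 are brightest in macrophage rows (C1qa 5069 CPM at day 21), and C3 (1020 CPM) and Serping1 (2066 CPM) in the stromal row of day 0; the receptors and C1q are also bright in granulocyte-like and unnamed cells after injury.

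The share of a gene's UMIs that came from each class shifted with the makeup of the tissue. Macrophages were 11.1% of cells at day 0, 63.9% at day 3, 28.5% at day 7, 11.7% at day 21 and 32.0% with p7N3. They gave 95.0% of C1qa UMIs at day 0 and between 80.2% and 86.6% in the other groups. Stromal cells gave 96.6% of C3 UMIs at day 0 and 46.6% at day 3, when macrophages gave 42.0%, and stromal cells gave 82.4% at day 7, 90.0% at day 21 and 84.5% with p7N3. For C4b the macrophage share was 33.5% at day 0, 44.0% at day 3 and 6.83% at day 21. Over all cells of a library, C3 ran from 281 to 447 CPM at day 0 and from 61.8 to 74.5 CPM at day 3, and Serping1 from 731 to 1083 CPM and from 118 to 187 CPM, without overlap.

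In macrophages the chains of C1q, which together form the recognition unit of the classical pathway, fell at day 3 and stood at or above the day 0 level at day 21. C1qa read 4347, 4058, 4742 and 3760 CPM in the day 0 libraries, 2030, 2515 and 1955 at day 3, 3209, 4433, 4799 and 3412 at day 7, and 5270, 5164, 4776 and 5065 at day 21. All day 3 libraries lay below every library of the other time points, and all day 21 libraries above every day 0 library. C1qc, at 3562, 3409, 4187 and 3800 CPM at day 0, read 1516, 1974 and 1435 at day 3, 2529, 3353, 3397 and 2462 at day 7, and 4492, 4390, 4180 and 4077 at day 21. C1qb read 3904, 3651, 4352 and 3679 CPM at day 0, 2865, 3611 and 2911 at day 3, 4411, 6030, 5937 and 4449 at day 7, and 6318, 5770, 5887 and 6061 at day 21. For C1qb, unlike the other chains, every day 7 library lay above every day 0 library. Macrophages held 5746 C1qc UMIs in 389 cells at day 0 and 66580 in 3692 cells at day 3. Their UMIs of all genes were 1550032 and 40108269, and library depth differed between these groups as well.

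**Figure D2:**
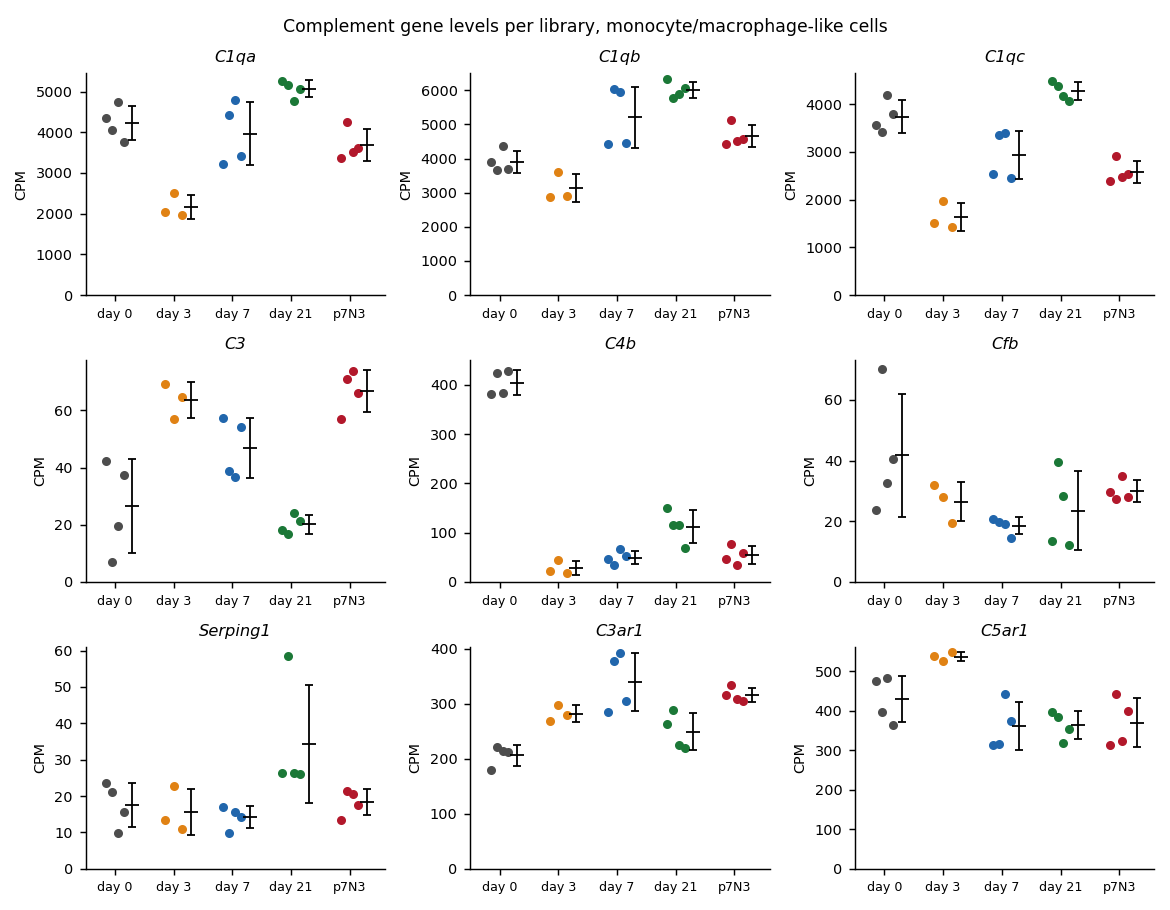
CPM of each complement gene in monocyte/macrophage-like cells, with a point for each library and a bar at the group mean ± SD over 3 or 4 libraries; each panel has its own axis. C1qa and C1qc dip at day 3 (C1qa 1955 to 2515 CPM against 3760 to 4742 at day 0), and C4b stays below its day 0 range of 381 to 428 CPM in every later library.

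At day 3, 7 of the 9 genes passed the test in macrophages, 3 higher and 4 lower, where 52.0% of the 6296 genes tested did. C1qa fell by 0.91 ± 0.10 on the log2 scale (adjusted p = 1.4e-05), C1qc by 1.13 ± 0.11 (5.3e-06) and C1qb by 0.26 ± 0.09 (0.0335). The fall of C1qb lost its call when any library other than day 3 replicate 2 was left out, with adjusted p from 0.147 to 0.716. At day 7, 5 of the 9 passed, 3 higher and 2 lower, against 33.8% of all genes; C1qb rose by 0.60 ± 0.13 (adjusted p = 0.00109), whereas C1qa was at 0.09 ± 0.13 (0.624) and C1qc at -0.16 ± 0.13 (0.353). At day 21, 5 of the 9 passed, 4 higher and 1 lower, against 22.8% of all genes, and all chains were higher: C1qb by 0.73 ± 0.08 (1.8e-06), C1qa by 0.37 ± 0.08 (0.00294) and C1qc by 0.30 ± 0.08 (0.0111). With the unnamed clusters nearest to macrophages added, C1qb at day 7 (0.36, adjusted p = 0.082) and C1qa and C1qc at day 21 (0.21 and 0.16, 0.102 and 0.213) did not pass, and the last 2 did not pass with finer clusters either (0.0627 and 0.121). All 3 time points were compared with the same day 0 libraries.

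The state of the macrophages also changed after injury, and the part of this in the C1q values was not tested. Of the resident-like state list (Folr2, Lyve1, Mrc1, Siglec1, Timd4, Cd163, Cbr2 and Gas6, genes of tissue-resident macrophages), 7 of 7 tested genes were lower at day 3, 7 of 8 at day 7 and 7 of 7 at day 21. Its summed level lay between 4218 and 5223 CPM at day 0, 951 and 1448 at day 3, 777 and 1285 at day 7, and 1708 and 2691 at day 21. C1qa varied widely between macrophage clusters, from 5694 ± 438 CPM in cluster 8 (led by Cd209f, Ccl8, Folr2 and Cd163) and 5408 ± 650 CPM in cluster 0 (Ms4a7, Apoe and Trem2) to 114 ± 103 CPM in cluster 7 (Chil3, Ifitm6 and Plac8), as mean ± SD over libraries with 18, 12 and 13 sums. Cluster 8 held 308 of the 389 macrophages of day 0 and 50 of the 3692 of day 3, of which 1947 were in cluster 6 (Pf4, Ccl6 and Mrc1) and 1308 in cluster 7.

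Within cluster 8 alone the day 3 fall of C1q was not detected. There 2 day 3 libraries had enough cells, and against day 0 C1qa stood at 0.18 on the log2 scale (adjusted p = 0.19) and C1qc at 0.12 (0.419), while C1qb rose by 0.29 (0.0382). In that fit 3 of the 7 members tested passed, 1 higher and 2 lower, against 43.1% of all genes. It does not cover macrophages of another state, which lie in other clusters. A further fit left out clusters in which monocyte-state genes, such as Ly6c2, Ccr2, Plac8 and Chil3, were higher on average than resident-like genes. These were clusters 4, 6, 7, 22 and 25, and 57 of the 3692 day 3 macrophages were kept. C1qa was then at 0.15 (adjusted p = 0.26) and C1qb at 0.29 (0.0327). The cells kept include those of cluster 8, so these values are not independent of the cluster 8 fit. At a Leiden resolution of 2, a cluster led by Mrc1 and Pf4 with 1090 day 3 cells scored higher for the resident-like state. At day 7 within cluster 8, C1qb rose by 0.61 ± 0.10 (adjusted p = 6e-05; 29.9% of all genes were called), with C1qa at 0.17 (0.23) and C1qc at 0.05 (0.728). At day 21 within cluster 8, C1qb rose by 0.58 (1.6e-05), and C1qa and C1qc each by 0.23 (0.0288 and 0.0267), where 16.2% of all genes were called.

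The chains did not keep 1 ratio. C1qb made up 32.8% ± 0.14 of the C1q UMIs of macrophages at day 0, 45.2% ± 0.90 at day 3, 43.1% ± 0.73 at day 7, 39.1% ± 1.00 at day 21 and 42.7% ± 0.76 with p7N3 (SD, n = 4, 3 at day 3). The day 0 libraries, at 32.7% to 33.0%, lay below every library of the injured groups, of which the lowest was 37.7%. C1qc made up 31.5% at day 0 and 23.6%, 24.3%, 27.9% and 23.6% in the later groups in the same order. Within cluster 8 the C1qb percentage was 31.9% ± 0.50 at day 0, 34.0% ± 0.036 at day 3 (n = 2), 39.7% ± 0.91 at day 7, 37.2% ± 1.08 at day 21 and 39.6% ± 1.09 with p7N3. Each percentage is a description and was not tested.

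**Figure D3:**
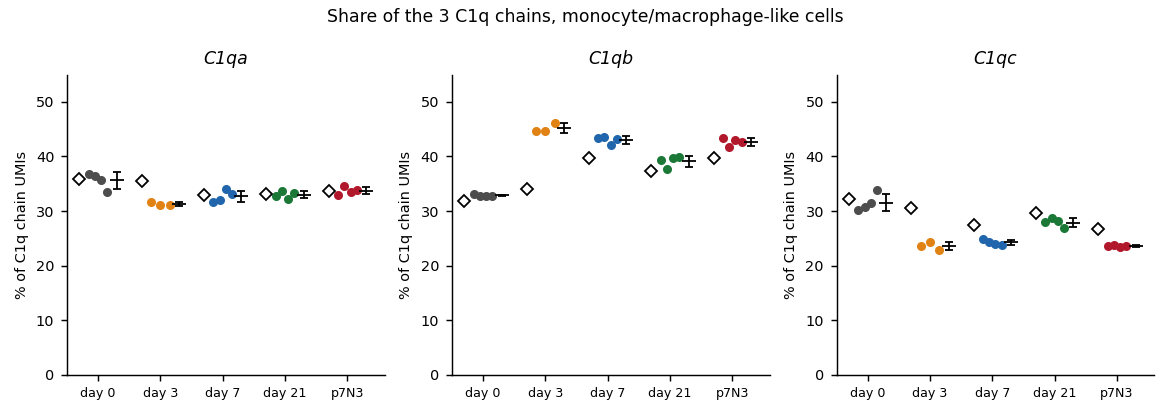
Percentage of the summed C1qa, C1qb and C1qc UMIs that each chain gave in monocyte/macrophage-like cells, with a point for each library, a bar at the group mean ± SD, and an open diamond for the mean within cluster 8. C1qb lies at 32.7% to 33.0% in the day 0 libraries and above 37% in every injured library.

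C4b, the component cleaved after C1 activation, fell in macrophages at every time point. It read 381, 424, 384 and 428 CPM in the day 0 libraries, 22.9, 43.7 and 18.0 at day 3, 45.6, 34.5, 66.0 and 51.8 at day 7, and 150, 115, 115 and 69.1 at day 21, so that no injured library reached the day 0 range. The falls were 3.77 ± 0.25 on the log2 scale at day 3 (adjusted p = 1.8e-07), 2.85 ± 0.16 at day 7 (3.7e-10) and 1.75 ± 0.17 at day 21 (6.1e-07). In cells thinned to 1500 UMIs each, 34.6% of day 0 macrophages held a C4b UMI, 2.58% at day 3, 5.68% at day 7 and 10.8% at day 21, and endothelial-like cells held it in at most 0.900% of cells on average. Unthinned, the macrophage shares were 44.1%, 13.2%, 12.1% and 30.5%, with median UMIs per cell of 2961 to 4324 at day 0 and 9234 to 9902 at day 3. Cluster 8 had the highest C4b among macrophage clusters, 303 ± 147 CPM over 18 libraries. Within it C4b fell by 0.81 ± 0.21 at day 3 (adjusted p = 0.00382), 1.33 ± 0.13 at day 7 (1.2e-07) and 1.14 at day 21 (5.8e-05).

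C3, which both pathways cleave, was low in macrophages and rose over that class at day 3 and day 7. It read 42.4, 7.02, 19.5 and 37.5 CPM at day 0, 69.3, 56.8 and 64.8 at day 3, 57.3, 38.8, 36.8 and 54.0 at day 7, and 18.3, 16.9, 24.3 and 21.2 at day 21. The day 3 libraries lay above the day 0 range, while the day 7 and day 21 libraries overlapped it. The rise was 1.14 ± 0.27 on the log2 scale at day 3 (adjusted p = 0.00331) and 0.83 ± 0.29 at day 7 (0.0341). The day 7 call was lost without day 0 replicate 2 (0.63, adjusted p = 0.0915), day 0 replicate 3 (0.76, 0.0832), day 7 replicate 1 (0.70, 0.0694) or day 7 replicate 4 (0.74, 0.0576). At day 3 C3 was at 84.2 ± 7.31 CPM in cluster 25 (led by Cxcl3, Arg1 and Csf3), 77.2 ± 18.7 in cluster 22, 75.4 ± 9.25 in cluster 7, 58.3 ± 5.06 in cluster 6 (n = 3 each) and 20.8 ± 6.96 in cluster 8 (n = 2). The stromal marker list was also higher in macrophages than at day 0, with 7 of 10 tested genes higher at day 3 and 10 of 11 at day 7. Its summed level lay between 484 and 789 CPM at day 0, 1023 and 1658 at day 3, and 1543 and 1850 at day 7. The part of this list in the C3 result was not tested. The same list summed to between 1287 and 2701 CPM at day 21, where C3 was at -0.45 ± 0.32 (adjusted p = 0.342). The clusters behind the class also changed. Cluster 8 held 308 of the 389 macrophages of day 0 and 50 of the 3692 of day 3. At day 3, 1947 were in cluster 6 and 1308 in cluster 7. The part of this shift in the class values of C3 was not tested. Day 0 macrophages held 47 C3 UMIs in all. In day 0 replicate 1, near-empty droplets held C3 at 361 CPM against 42.4 CPM in macrophages, and the part of this in the result was not tested.

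Cfb, the alternative pathway's protease, read 23.5, 70.2, 32.5 and 40.6 CPM in day 0 macrophages and 20.7, 19.8, 19.2 and 14.6 at day 7, where it fell by 0.86 ± 0.27 on the log2 scale (adjusted p = 0.0201). That call was lost without day 0 replicate 2, the highest library (0.197), or day 0 replicate 4 (0.0686). At day 21 it was at -0.67 ± 0.38 (adjusted p = 0.209), and at -1.03 (0.0384) without day 21 replicate 2. Among macrophage clusters Cfb was highest in cluster 22, led by Ifit3 and Cxcl10, genes induced by interferon, at 88.1 ± 43.6 CPM over 11 libraries. Serping1 was low in macrophages, with 23.5, 21.0, 9.75 and 15.6 CPM at day 0 and 26.3, 58.5, 26.3 and 26.0 at day 21. The groups did not overlap, and the value of 0.95 ± 0.35 did not pass the test (adjusted p = 0.0595), but did when day 21 replicate 1, 3 or 4 was left out (0.0452, 0.0481 and 0.0443).

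The receptors were high in macrophages at every time. C3ar1 read 179, 221, 215 and 212 CPM at day 0, 269, 299 and 279 at day 3, 285, 378, 392 and 305 at day 7, and 263, 290, 224 and 220 at day 21. Every day 3 and day 7 library lay above the day 0 range, and the day 21 libraries overlapped it. The rise was 0.53 ± 0.11 on the log2 scale at day 3 (adjusted p = 0.00125), 0.92 ± 0.14 at day 7 (6.5e-05) and 0.39 ± 0.13 at day 21 (0.0391). The day 21 call was lost without day 0 replicate 1, 2 or 4 (0.137, 0.0537 and 0.0544) or day 21 replicate 1 or 2 (0.0924 and 0.0806). C5ar1 read 476, 396, 484 and 365 CPM at day 0 and 539, 525 and 549 at day 3, a rise of 0.37 ± 0.11 (adjusted p = 0.0159; 0.0764 with the unnamed clusters nearest to macrophages added), and it was at -0.08 ± 0.14 at day 7 (0.715) and -0.14 ± 0.13 at day 21 (0.456). With only cluster 8 taken, C3ar1 rose at day 7 by 0.54 (adjusted p = 0.00429), but turned to -0.27 at day 3 (0.228) and -0.13 at day 21 (0.62), and C5ar1 fell at day 3 by 0.58 (0.0128). Granulocyte-like cells held more C5ar1 than macrophages at day 3, between 724 and 936 CPM, and unnamed cells gave 25.5% ± 11.0 of C3ar1 UMIs at day 7.

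In stromal cells C3, C4b and Serping1 fell at day 3 by over 2 on the log2 scale, and Cfb by less. C3 and Serping1 were still below day 0 at day 21, and C4b was above it. C3 read 1064, 933, 975 and 1107 CPM at day 0, 108, 117 and 70.3 at day 3, 247, 129, 273 and 171 at day 7, and 409, 391, 438 and 175 at day 21. Serping1 read 1884, 2146, 2241 and 1994 CPM at day 0, 343, 418 and 307 at day 3, 810, 529, 865 and 498 at day 7, and 1695, 1649, 1496 and 1285 at day 21. For both genes no injured library reached the day 0 range. C4b read 228, 192, 188 and 138 CPM at day 0, 43.4, 53.7 and 27.1 at day 3, 127, 72.9, 141 and 64.5 at day 7, and 305, 326, 367 and 184 at day 21. Cfb moved least, at 77.9, 83.7, 84.8 and 75.4 CPM at day 0 and 47.8, 65.6 and 56.4 at day 3, with wide spreads at day 7 (28.1 to 82.4) and day 21 (65.2 to 143).

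**Figure D4:**
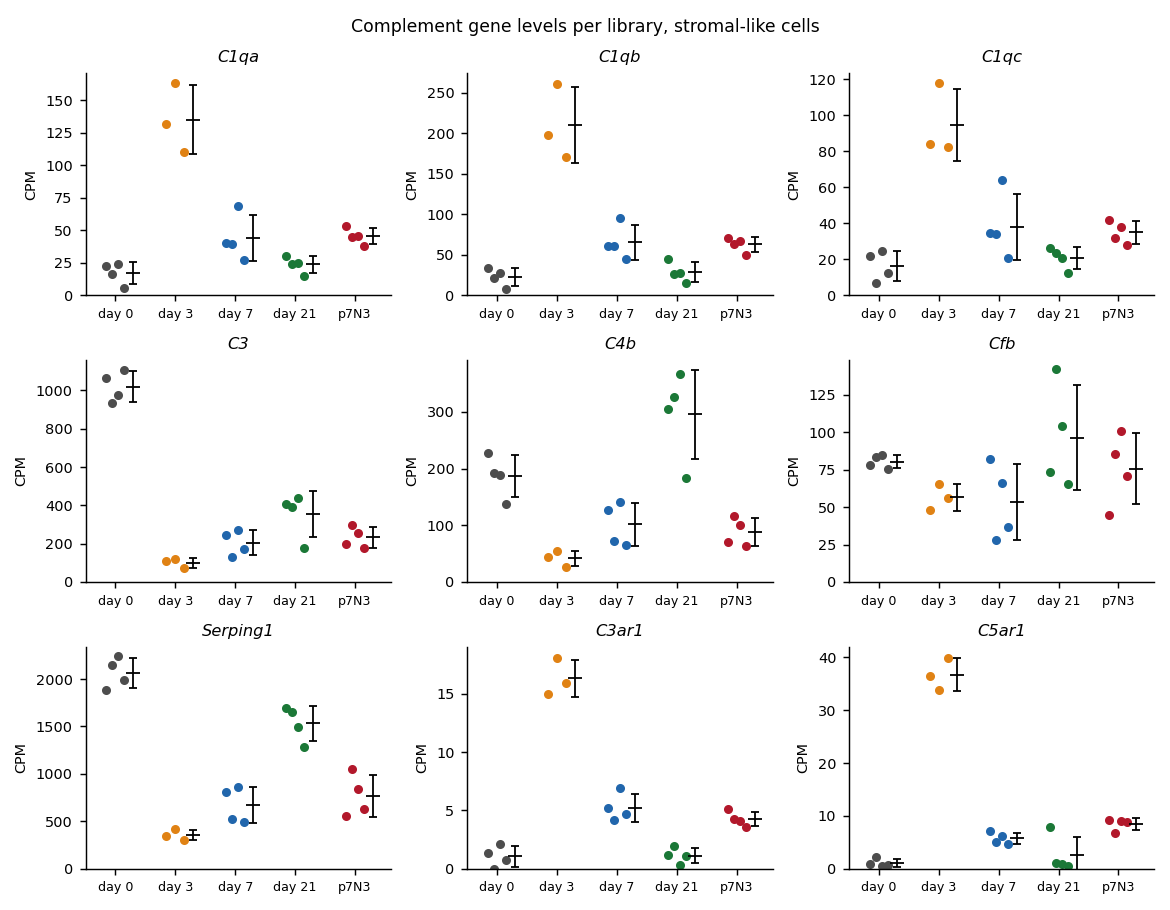
CPM of each complement gene in stromal-like cells, with a point for each library and a bar at the group mean ± SD over 3 or 4 libraries; each panel has its own axis. C3 lies between 933 and 1107 CPM at day 0 and between 70.3 and 117 at day 3, and C4b at day 21 (184 to 367 CPM) lies mostly above its day 0 range of 138 to 228.

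At day 3 all 9 genes passed the test in stromal cells, 5 higher and 4 lower, against 66.3% of the 10507 genes tested. C3 fell by 3.25 ± 0.17 on the log2 scale (adjusted p = 1.1e-08), Serping1 by 2.41 ± 0.12 (9.2e-09), C4b by 2.04 ± 0.21 (3.2e-06) and Cfb by 0.38 ± 0.12 (0.0135). The call of Cfb was lost without day 0 replicate 3 (0.0574) or day 3 replicate 1 (0.0858). At day 7, 8 of the 9 passed, 5 higher and 3 lower, against 53.3% of all genes; C3 fell by 2.28 ± 0.21 (1.9e-06), Serping1 by 1.57 ± 0.18 (1.1e-05) and C4b by 0.84 ± 0.24 (0.00956), with Cfb at -0.56 (0.113; 0.0125 without day 7 replicate 1). At day 21, 3 of the 7 tested passed, 1 higher and 2 lower, against 33.0% of all genes. C3 was still lower by 1.49 ± 0.22 (adjusted p = 0.00032) and Serping1 by 0.39 ± 0.10 (0.0101), and C4b was higher by 0.70 ± 0.19 (0.0147). With the tenocyte-like cells counted as stromal, C4b at day 21 stood at -0.09.

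The share of stromal cells with a UMI at a fixed depth was also lower after injury. Thinned to 1500 UMIs, 88.2% of stromal cells held Serping1 at day 0, 37.5% at day 3, 54.1% at day 7 and 79.7% at day 21, and 50.6%, 14.3%, 23.1% and 27.3% held C3. Without thinning the shares were 98.0%, 96.4%, 89.3% and 99.1% for Serping1 and 64.0%, 69.1%, 52.6% and 51.9% for C3, with median UMIs per stromal cell of 4311 to 6247 at day 0 and 33228 to 41123 at day 3. In endothelial-like cells thinned likewise, C3 was held by 2.59% at day 0 and 0.740% at day 21, and Serping1 by 6.70% and 8.04%. Of the 1182 stromal and 389 macrophage cells of day 0, 69 and 33 were left out of the thinned shares for having fewer UMIs. Thinning fixes the total per cell, so the thinned shares are relative like CPM. Stromal cells held 1210 C4b UMIs in 1182 cells at day 0 and 1288 in 816 cells at day 3. Their UMIs of all genes were 6321867 and 29536588, and library depth differed between these groups as well.

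The makeup of the stromal cells moved with these values. Cluster 9, led by Myoc, Clec3b and Gsn, held 958 of the 1182 stromal cells of day 0 and 4 of those of day 3, of which 755 of 816 were in cluster 18, led by Prg4, Cxcl14 and Cxcl5. Pooled over groups, C3 was at 1467 ± 600 CPM in cluster 17 (led by Has1 and Pi16) and 826 ± 357 CPM in cluster 9, over 16 libraries each, but at day 7 the order was turned, with 919 ± 127 CPM in cluster 17 and 1074 ± 657 in cluster 9. It was at 134 ± 86.8 CPM in cluster 18 (9 libraries), 39.0 ± 23.9 CPM in cluster 15 (11) and 19.1 ± 12.3 CPM in cluster 12 (10); cluster 12 is led by Crabp1 and Lrrc15 and cluster 15 by Crabp1 and Birc5. Serping1 did not share this order, with 2292 ± 710 CPM in cluster 31 (led by Sfrp5 and Apod, 7 libraries), where C3 was at 56.3 ± 58.7 CPM. It was at 1988 ± 292 CPM in cluster 9, 1939 ± 306 in cluster 17, 611 ± 306 in cluster 18 and 232 ± 123 in cluster 12. C4b was at 550 ± 331 CPM in cluster 17 and 323 ± 163 in cluster 9 over all groups, and at 442 and 461 CPM at day 7.

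Within cluster 9 the falls of C3 and Serping1 were not detected. At day 7 C3 stood at 0.31 on the log2 scale against day 0 (adjusted p = 0.593) and Serping1 at -0.01 (0.991). The day 7 libraries spread from 343 to 1937 CPM of C3, around the day 0 range of 787 to 993. For Serping1 they spread from 1274 to 2462 CPM, around 1881 to 2302 at day 0. These spreads limit what could be detected. The fit also leaves out stromal cells of another state, which lie in other clusters. C4b rose at day 7 by 1.36 ± 0.28 (0.00325), where 12.7% of all genes were called. At day 21 C3 stood at -0.41 (0.0825) and Serping1 at -0.02 (0.966), and C4b rose by 1.13 ± 0.14 (5.8e-05), where 5.34% of all genes were called. No day 3 fit was possible within cluster 9, which had 4 cells. Cluster 17 differed in its C3 values: the 4 day 0 libraries lay between 2067 and 2753 CPM, the 4 of day 7 between 806 and 1032, and the 4 of day 21 between 1555 and 1760, without overlap. Serping1 in cluster 17 overlapped between these groups (1716 to 2236, 1556 to 1993 and 1994 to 2510 CPM). Cluster 17 was looked at after its values were seen, and its values were not tested.

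**Figure D5:**
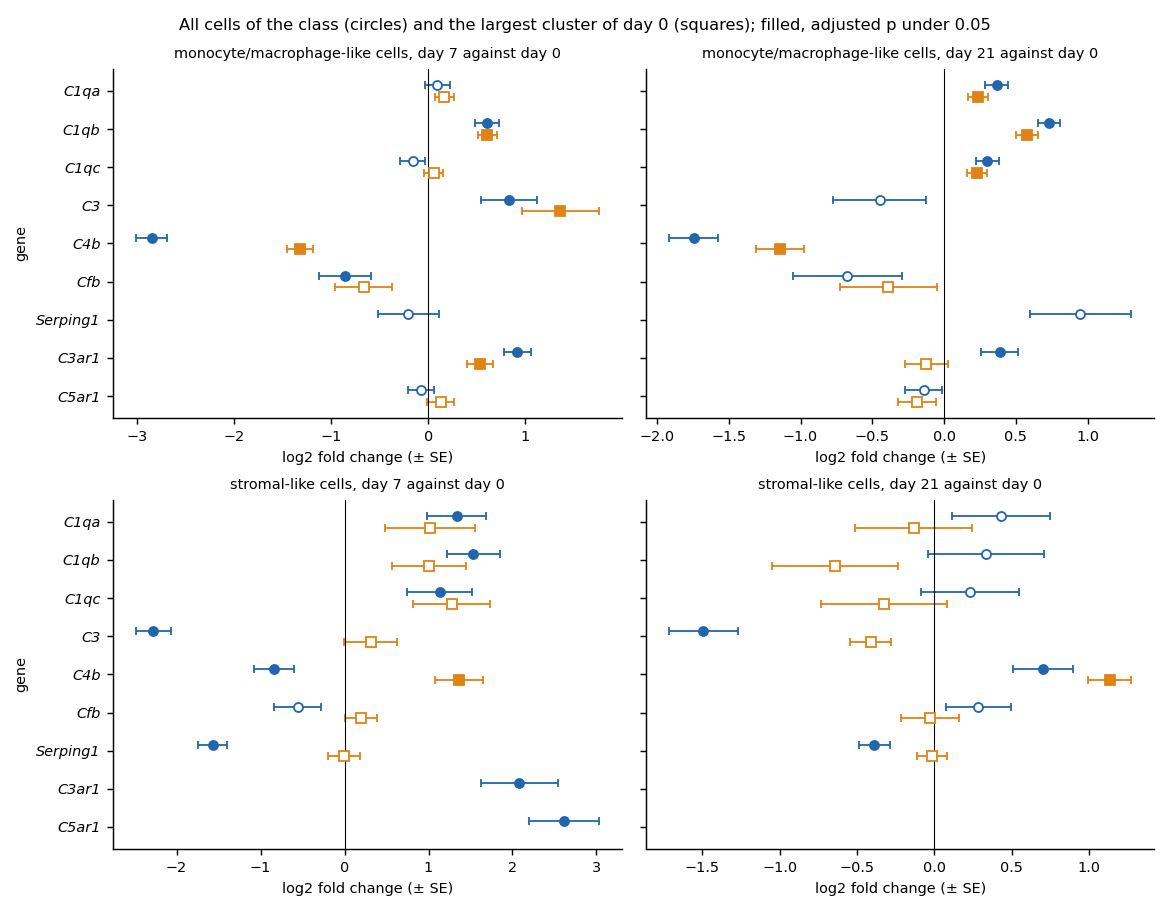
Log2 fold change ± SE against day 0 for the complement genes over the whole class and within the cluster that held most day 0 cells of that class (cluster 8 for macrophages, cluster 9 for stromal cells), at day 7 and day 21; filled symbols have an adjusted p under 0.05, and genes without a symbol were not tested. Within cluster 9 (squares) Serping1 lies at -0.01 and -0.02 and C4b at 1.36 and 1.13, and within cluster 8 C4b lies at -1.33 and -1.14 against -2.85 and -1.75 over all macrophages.

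The macrophage genes of the set were also higher in stromal cells at day 3 and day 7. None of them passed the test there at day 21. At day 3 C5ar1 rose by 5.35 ± 0.27 on the log2 scale (adjusted p = 7.4e-09), from 1.11 ± 0.78 to 36.8 ± 3.05 CPM. C3ar1 rose by 3.79 ± 0.35 (1.1e-06), C1qb by 3.29 ± 0.27 (4.2e-07), C1qa by 3.04 ± 0.25 (5e-07) and C1qc by 2.52 ± 0.24 (1.8e-06). At day 7 the 5 were higher by 1.13 to 2.61, and C1qc lost its call without day 0 replicate 2 or 4 or day 7 replicate 3 (0.0609, 0.0706 and 0.0511). Markers of other cells moved with them. Of the monocyte/macrophage list, 12 of 14 tested genes were higher in stromal cells at day 3 (median log2 change 3.79, against 0.01 over all genes) and 10 of 13 at day 7, and its summed level lay between 113 and 198 CPM at day 0, 1361 and 1472 at day 3, 409 and 661 at day 7, and 211 and 277 at day 21. Of the granulocyte list 7 of 9 were higher at day 3, and it summed to between 93.0 and 145 CPM in day 0 libraries against between 1496 and 2558 in those of day 3. In cluster 18, 45.6% of cells held Ptprc, the pan-leukocyte gene, and 93.6% held Pdgfra, a fibroblast gene.

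At day 3 the mean C1qb percentage of stromal C1q UMIs lay between those of macrophages and granulocyte-like cells. C1qb was 47.7% ± 0.65 of C1q UMIs in day 3 stromal cells and 49.4% ± 1.47 in day 3 endothelial-like cells, against 45.2% ± 0.90 in macrophages and 48.5% ± 1.54 in granulocyte-like cells (SD, n = 3). C1qa was held by 95.1% of stromal and 82.0% of endothelial-like cells at day 3, and by 18.8% and 14.9% once thinned to 1500 UMIs, where macrophages held it in 55.4%. The stromal share (± 5.21, SD) lay within the spread of that in endothelial-like cells (± 9.90). Whether stromal cells made these UMIs was not tested. In day 0 replicate 1, whose table also holds near-empty droplets, 333068 droplets of 1 to 50 UMIs held C1qa at 298 CPM, C3 at 361, Serping1 at 459 and C4b at 116, against 22.5, 1064, 1884 and 228 CPM in its stromal cells. The part of these markers and droplets in the stromal rises was not tested.

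The change from day 0 differed between macrophages and stromal cells for 7 of the 9 genes at day 7, 2 with the higher change in macrophages and 5 in stromal cells, where 19.6% of 12068 genes differed. By the interaction term of edgeR, the log2 change of C3 stood 3.23 ± 0.29 higher in macrophages than in stromal cells (adjusted p = 9e-09). That of Serping1 stood 1.41 ± 0.26 higher (0.00021). Both genes fell in stromal cells at day 7. Both were low in day 0 macrophages, at 42.4 CPM of C3 and 23.5 of Serping1 in day 0 replicate 1. The near-empty droplets of that library held 361 and 459 CPM. C4b differed by -1.92 ± 0.20 (9.6e-08), the macrophage fall being the larger. At day 21, 4 genes differed, against 8.52% of all genes: C4b by -2.44 ± 0.18 (9.4e-11), with a fall in macrophages and a rise in stromal cells, Serping1 by 1.31 ± 0.29 (0.0031), C3 by 1.15 ± 0.33 (0.0271) and Cfb by -0.96 ± 0.29 (0.0374). The call of C3 was lost without day 21 replicate 4 (0.88, adjusted p = 0.0673). That of Cfb was lost without day 0 replicate 2, 3 or 4 or day 21 replicate 1 or 4 (adjusted p from 0.0659 to 0.324). C1qb at day 21 gained a call without day 0 replicate 4 (0.79, adjusted p = 0.0454), and C5ar1 without day 21 replicate 4 (-2.12, 0.032).

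Treatment with p7N3 was compared with day 7, the harvest day of p7N3 replicates 1 to 3 but not given for replicate 4. None of the 9 genes passed the edgeR test in macrophages or in stromal cells, where 0 of 10442 and 0 of 13129 genes did (0% in each); at an unadjusted p under 0.05 there were 937 and 1483 genes, and DESeq2 called 27 and 72. In macrophages Cfb read 29.6, 27.3, 35.0 and 28.0 CPM with p7N3 against 20.7, 19.8, 19.2 and 14.6 at day 7, without overlap, a difference of 0.67 ± 0.13 on the log2 scale (unadjusted p = 0.00016, adjusted p = 0.221, 4 of 4 treated libraries higher). DESeq2 gave Cfb an adjusted p of 0.0222, and edgeR without a filter on low counts one of 0.00722. C3 read 56.9, 70.9, 73.6 and 66.1 CPM against 57.3, 38.8, 36.8 and 54.0, a difference of 0.50 ± 0.13 (adjusted p = 0.326). The other 7 genes ranged from -0.21 to 0.34 in macrophages, and the 9 from -0.28 to 0.56 in stromal cells. In stromal cells Serping1 read 558, 1052, 841 and 626 CPM with p7N3 against 810, 529, 865 and 498, and C3 200, 299, 254 and 177 against 247, 129, 273 and 171, with overlapping groups. No gene of 13097 differed between the classes in its p7N3 effect (0%), 938 did at an unadjusted p under 0.05, and this term was not run with DESeq2; C5ar1 was at -0.53 ± 0.21 (unadjusted p = 0.0236, adjusted p = 0.641). Within cluster 8 Cfb was at 57.2 CPM with p7N3 and 29.1 at day 7 after scaling, 0.93 ± 0.20 on the log2 scale (adjusted p = 0.338), without overlap. The cells of cluster 8 are part of the macrophages of the same libraries, so this value is not independent of the one above.

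Of 42 other complement genes listed, 40 were in the files. In macrophages at day 3, 11 were tested, of which 3 rose and 5 fell. At day 7, 14 were tested with 2 up and 4 down, at day 21 11 with 2 up and 4 down, and 0 of 19 passed for p7N3. Over all genes tested, 52.0%, 33.8%, 22.8% and 0% were called in these comparisons in order. Large falls recurred at each time for Fcna, a lectin that starts the lectin pathway, Colec12, a scavenger receptor with a collectin domain, and Vsig4, a macrophage receptor for C3b. At day 3 Fcna fell by 3.46 ± 0.26 on the log2 scale (adjusted p = 5.2e-07), from 213 to 18.5 scaled CPM, Colec12 by 3.07 ± 0.32 (8.5e-06) and Vsig4 by 2.06 ± 0.75 (0.0344). At day 7 their falls were 3.07, 3.23 and 1.73 in the same order, and at day 21 2.30, 2.46 and 2.57. Cd93, a receptor of endothelial and myeloid cells, rose by 0.82 ± 0.16 at day 3 and 0.83 ± 0.17 at day 21 (adjusted p = 0.00108 and 0.00127). Itgax, a chain of complement receptor CR4, rose by 1.42 ± 0.36 at day 7 (0.00494).

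In stromal cells 16 other complement genes were tested at day 3, of which 3 rose and 12 fell, with a median log2 change of -2.37 against 0.01 over all genes. At day 7, 20 were tested, 3 up and 13 down (median -1.07), at day 21 17, 4 up and 6 down, and for p7N3 0 of 22. Over all genes tested in stromal cells, 66.3% were called at day 3, 53.3% at day 7, 33.0% at day 21 and 0% for p7N3. C7, a component of the membrane attack complex, fell by 6.67 ± 0.35 at day 3 (adjusted p = 9.7e-09), from 35.7 to 0.318 scaled CPM, by 6.25 ± 0.32 at day 7 (3.5e-08) and by 3.43 ± 0.27 at day 21 (3.1e-06). Vtn and Clu, soluble inhibitors of that complex, fell at day 3 by 4.25 ± 0.23 (1.3e-08) and 3.98 ± 0.24 (3.4e-08), and Vtn by 1.59 ± 0.19 at day 21 (6.9e-05). Cd55, which breaks up the C3-cleaving enzymes at the cell surface, fell by 3.81 ± 0.26 at day 3 (8.5e-08), 2.36 ± 0.24 at day 7 (4.6e-06) and 1.12 ± 0.18 at day 21 (0.00061). Cd59a, a membrane inhibitor of the attack complex, rose by 2.16 ± 0.38 at day 7 (0.00041) and 2.27 ± 0.36 at day 21 (0.00048). Cfi, the protease that inactivates C3b and C4b, had 0 UMIs in day 0 stromal cells and 10.6 ± 1.87 CPM at day 7 and 14.3 ± 2.91 CPM at day 21, at least 22.3-fold and 30.0-fold higher than a floor of 3 counts over the day 0 group. Itgb2, the leukocyte integrin chain of CR3 and CR4, rose by 3.74 ± 0.37 at day 3 (2.1e-06), as did the monocyte/macrophage list there.

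Likeness of pattern was taken as the Pearson correlation of log2(CPM + 1) over 165 sums of a class in a library, from 13 classes and with 12951 genes compared; the sums share libraries and depth, so the values are descriptions. The genes most like C1qa were C1qc (0.955), C1qb (0.951) and C3ar1 (0.939). C5ar1 was most like Pf4 (0.927) and Lyz2 (0.912), and Serping1 most like Gas1 (0.848) and Nbl1 (0.845). The values were lower for C3, whose nearest was Dpep1 (0.659), for Cfb (Dram1, 0.657) and for C4b (Reps2, 0.640).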

How the data were processed

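The 19 libraries were deposited by the authors as sparse tables of UMI counts, whole numbers per gene and cell barcode that were not normalized; per the labels, Cell Ranger and Seurat were used, with GRCh38 named as build for most samples and mm10 for the replicate 4 libraries, while all gene identifiers are those of mouse. The members and gene lists were chosen with earlier results of these data known. Barcodes needed 500 or more genes and a mitochondrial share of UMIs of 25% or less; 1 table, that of day 0 replicate 1, also holds near-empty droplets. Cells were clustered in scanpy 1.11.5 (python 3.11.15; 2000 variable genes without complement genes, 30 components, 20 neighbours, Leiden resolution 0.8). A cluster was named from marker lists by at least 3 markers. No doublets were removed; removal of the top 3.9% of Scrublet scores per library was an alternative. UMIs were summed per library and class (at least 10 cells) and tested with edgeR 4.0.16 (R 4.3.3; TMM, default expression filter, quasi-likelihood test, 2 groups per fit, threshold 0.05 after Benjamini-Hochberg adjustment), with DESeq2 1.42.0 as an alternative. Whether a change differed between the classes was tested by an interaction term with the library as a block. Each ± after a log2 value is a standard error.

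All 9 members are named in every comparison, and of the other complement genes at most 5 per comparison, with the largest change past the threshold and at least 10 CPM in a group; some items are not reported here. Shares of cells were taken after thinning each cell to 1500 UMIs. Total UMIs set the precision, and intervals were not computed. Scripts were tested on simulated counts. Alternatives covered normalization, filters, clustering, doublets, class definition, a replicate block and each library left out; those with the unnamed macrophage-nearest clusters added or only the largest day 0 cluster of a class kept were chosen after seeing the data.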

Additional observations from a re-analysis of the deposited data

Results flagged for a closer look

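In groups of 4 libraries, 72 sets of values were examined for a library far from the others, and 2 were found, where chance marks about 1 group in 20. Serping1 in macrophages was at 58.5 CPM in day 21 replicate 2 against 26.0 to 26.3 CPM in the other 3 libraries. C5ar1 in stromal cells was at 7.83 CPM in day 21 replicate 1 against 0.545 to 1.11 CPM in the others.

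The change from day 0 differed between macrophages and stromal cells by the interaction term of edgeR in 11 results, each given as the macrophage minus the stromal log2 change. At day 7 the difference was 3.23 for C3 and 1.41 for Serping1, with the macrophage change the higher. It was -1.92 for C4b, -1.18 for C1qa, -0.89 for C1qb, -1.19 for C1qc and -2.66 for C5ar1. The last 4 stand beside the rise of the monocyte/macrophage marker list in stromal cells, from a summed 113 to 198 CPM at day 0 to 409 to 661 CPM at day 7, whose part in the result was not tested. At day 21 the difference was -2.44 for C4b, 1.31 for Serping1, 1.15 for C3 and -0.96 for Cfb.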

How the results depend on the processing

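Day 0 libraries were shallow and held few macrophages, which limits low genes such as C3, Cfb and Serping1 there. Over settings other than an omitted library, 620 of 682 member changes kept direction and side of the threshold, 36 lost and 8 gained the call and 18 turned sign; with each library left out in turn, 399 of 437 kept both, 28 lost it, 7 gained it and 3 turned. Of 40 changes past the threshold in no setting, 26 turned sign in some setting, and these appear in the text only as ranges or with their adjusted p. The cause of these shifts was not tested unless the setting itself removes cells or genes.

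When each library had to hold 10 UMIs of a gene, fewer genes were tested, and 1991 were called in macrophages at day 3 and 1837 at day 7 (3273 and 3118 otherwise), and 1203 by class at day 7 (2369). With monocyte-state clusters left out, 1719 genes were called in macrophages at day 3. C1qa stood at 0.15, C1qb at 0.29, C1qc at 0.066, C3ar1 at -0.067 and C5ar1 at -0.58. That set includes the largest day 0 macrophage cluster, so the next fit is not independent of it. Within the largest day 0 macrophage cluster, 1670, 1491 and 756 genes were called at day 3, 7 and 21. There C1qa stood at 0.18, C1qb at 0.29, C1qc at 0.12, C3ar1 at -0.27 and C5ar1 at -0.58 at day 3, C1qc at 0.054 at day 7 and C3ar1 at -0.13 at day 21. C1qa at day 7 was at -0.11 with a Leiden resolution of 2, -0.19 with the unnamed macrophage-nearest clusters added, and -0.053 to 0.21 with a library left out. Within the largest day 0 stromal cluster, 792 and 412 genes were called at day 7 and 21 (6597 and 3470 over the class), with C3 at 0.31, C4b at 1.36 and Cfb at 0.19 at day 7. With tenocyte-like cells added, C4b at day 21 was at -0.088 in stromal cells. With replicates 1 to 3 only, 480 genes differed by class at day 21 (851). Left-out libraries moved C5ar1 by class at day 21 between -2.12 and 0.060.

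For p7N3, DESeq2 called 27 genes in macrophages and 72 in stromal cells, no filter on low counts 100 and 5, a single fit of all groups 1 and 9, tenocyte-like cells added 3 in stromal cells, and no filter 83 by class. With a library left out the calls ran from 2819 to 3594, 2585 to 2889, 1225 to 1636 and 0 to 1 in macrophages (day 3, 7, 21 and p7N3), 6421 to 7320, 5410 to 6484, 2830 to 3433 and 0 to 2 in stromal cells, and 1747 to 2399, 631 to 990 and 0 to 2 by class (day 7, 21 and p7N3).

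Same-numbered libraries correlated in their deviations at -0.0955 to 0.132, so the replicate numbers are not taken to pair libraries. With the replicate number as a block, 2790, 2912, 1534 and 3 genes were called in macrophages and 6506, 6253, 3229 and 0 in stromal cells, in the same order; Serping1 in macrophages at day 21 (0.92, adjusted p = 0.0351) and Cfb in stromal cells at day 7 (-0.63, 0.0198) then passed in edgeR.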

Other observations

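C1q UMIs were also found outside the named macrophages. Clusters left unnamed, whose nearest list was monocyte/macrophage (cluster 3 among them, led by Gpnmb, Mmp12 and Spp1), held 0.225% of cells at day 0, 5.14% at day 3, 8.60% at day 7, 1.93% at day 21 and 10.4% with p7N3. At day 7 the unnamed cells together had 1119 ± 330 CPM of C1qa and 281 ± 43.4 CPM of C3ar1 (SD, n = 4), and granulocyte-like cells 2684 ± 661 CPM of C1qa. Erythrocyte-like cells had 3535 ± 832 CPM of C1qa and 304 ± 160 of C3ar1 at day 7 (n = 2). Muscle-like cluster 34 had 1100 CPM of C1qa at day 7 (n = 1). Whether the cells of any of these classes made C1q was not tested. The granulocyte-like cluster was also high in a share of 0.5 of the monocyte/macrophage markers, and at a Leiden resolution of 2 the cluster with as many day 7 cells (73) was left unnamed, with 13 of 14 monocyte/macrophage markers. In pericyte/smooth muscle-like cells Serping1 was at 399 ± 73.9 CPM at day 0, 639 ± 220 at day 3, 815 ± 120 at day 7 and 962 ± 47.6 at day 21. Stromal cells fell from 2066 ± 158 to 356 ± 56.5, 676 ± 189 and 1532 ± 185 CPM. The pericyte class joins clusters that differ. Cluster 14 read 897 ± 535 (n = 2), 687 ± 245, 836 ± 132 and 1218 ± 44.3 CPM at these days in order. Cluster 19 read 344 ± 82.1 CPM at day 0, 599 ± 187 at day 7 and 536 ± 67.0 at day 21. The pericyte values were not tested.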
